A study of Rattus norvegicus with 24 samples.

Results

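A set of 10 genes of the cell's scaffold and surface were followed over the 8 labelled groups of the study, out of 17055 genes in the count tables. They were the keratins Krt8 and Krt18, the actin-linked genes Tagln2, Myl9 and Smtnl2, the focal adhesion genes Tgfb1i1 and Bcar3, and the surface adhesion genes Mpzl2, Icam1 and Epcam. The 10 symbols were listed in advance, picked because their levels differed widely between labelled groups, and each was matched by symbol in the tables. Since every contrast between labelled groups entered that choice, levels and fold changes of the 10 genes are given as a description, with no p-values. All 10 passed the filter on low counts, which 9994 genes passed.

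RNA came from PC12 cells, a rat line derived from a pheochromocytoma, a tumour of adrenal chromaffin cells. Per the labels, 1 stable line carried the empty vector pcDNA3 and 1 carried pcDNA3 with human α1ACT, a protein made from the C-terminal end of the CACNA1A calcium channel mRNA. The times were 6 h, 24 h, 3 d and 10 d in both lines. Each of the 8 groups holds 3 libraries, 24 in all. The labels do not state from which event the times were counted. Both lines shared the PC12 background and the pcDNA3 plasmid, and a difference between them is between 1 line of each kind. The tables have no row of their own for the human transgene, so the counts do not check which libraries carried it.

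The labels and the names of the deposited tables disagree, and the correspondence given here applies to every comparison below. For 18 of the 24 libraries the name holds another time than the label. The names hold a prefix and a time, and the sample titles use P for the vector line and Q11 for the α1ACT line. Vector 6 h is named P 6H, α1ACT 6 h P 24H, vector 24 h P 3D and α1ACT 24 h P 10D. Vector 3 d is named Q11 6H, α1ACT 3 d Q11 24H, vector 10 d Q11 3D and α1ACT 10 d Q11 10D. The time agrees only for vector 6 h and α1ACT 10 d. For 12 of the 18 libraries the name also holds the other line. By the names, a labelled difference between lines is then a difference between times within 1 line, and labelled 3 d against 6 h, or 10 d against 24 h, is Q11 against P at 1 time. Over all tested genes, the groups that share a time in their names lay closest. The root mean square difference of their mean log2 CPM was 0.185 to 0.222 in those 4 pairs and 0.368 or more in all other pairs of groups. Which of the 2 assignments holds cannot be told apart from the labels, and groups are called by their labels throughout.

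Counts on genes ranged from 8679560 to 14486248 per library, and 47.8% to 52.9% of reads assigned, ambiguous or outside genes lay outside them. Levels are given as CPM, counts on genes scaled to a common library total with TMM factors, so they compare 1 gene across libraries and not 1 gene with another. A count of 3 in a library corresponds to 0.207 to 0.346 CPM, below which a level is not distinguished from 0. All 13 chromaffin and PC12 markers found in the tables averaged at least 1 CPM, among them Th, the rate-limiting enzyme of catecholamine synthesis, at 4759.9 to 8637 CPM. Their summed level was 34637 to 38859.6 CPM in α1ACT 24 h and 10 d and 27717 to 33642 CPM in the other groups. Markers of smooth muscle and fibroblasts Acta2, Col1a2, Lum, Pdgfrb and Fn1 had 0 counts in every library. The summed level of that list, 638 to 887 CPM, was mostly Thy1, a surface protein also found on neurons, at 630.1 to 879 CPM, and 3 of its 14 genes averaged 1 CPM or more. Of 9 epithelial markers 5 averaged 1 CPM or more and Esrp1 had 0 counts. Their summed level was 355 to 409 CPM in vector 24 h and 10 d, the groups where the keratins were lowest, and 259 to 311 CPM elsewhere. Endothelial Kdr, Tie1 and Emcn, immune Ptprc and Aif1, and glial Sox10 also had 0 counts, and the summed levels of those lists were at most 4.92, 3.87 and 62.3 CPM. In bulk RNA, fewer cells of a type and less RNA per cell cannot be told apart. A gene with 0 counts may be absent or may have reads that were not counted, which was not tested.

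Keratins 8 and 18 form the paired intermediate filaments of simple epithelia, where they carry mechanical load and anchor to desmosomes. Actin filaments are pulled by myosin II, whose regulatory light chains (Myl9 among them) are phosphorylated to start contraction, and they are bound by calponin-family proteins such as the transgelins and smoothelins. Filament bundles end at focal adhesions, where integrins, vinculin, talin, paxillin-family adaptors and Cas-family scaffolds tie them to the matrix, and serum response factor with its actin-sensing partners drives many of these genes. PC12 cells attach weakly to plastic and put out neurites on nerve growth factor, a change of shape that draws on the same machinery.

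Promoter sequences are shown first for 4 genes that stand for the main patterns, 2 keratins that were high together, Smtnl2, which was low where these were highest, and Epcam with a stepwise pattern. Sequences are the 250 bases before a start of the gene in RefSeq on build GRCr8, which is not the build of the counts (rn5). Of the 10 genes, 8 were found there. Myl9 and Mpzl2 were not among them. The Krt8 window is chr7:135010340-135010589 on the minus strand and the Krt18 window chr7:135035918-135036167 on the plus strand. The Smtnl2 window is chr10:57528051-57528300 and the Epcam window chr6:12649679-12649928, both on the minus strand. All 4 lie outside the gene's own model, read 5′ to 3′ toward it, and capitals mark matches on either strand to the motifs named next.
Krt8: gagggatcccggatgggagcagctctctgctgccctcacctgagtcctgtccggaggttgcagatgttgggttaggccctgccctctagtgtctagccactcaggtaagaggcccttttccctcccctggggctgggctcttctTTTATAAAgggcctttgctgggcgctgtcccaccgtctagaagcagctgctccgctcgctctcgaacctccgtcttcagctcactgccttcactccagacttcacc
Krt18: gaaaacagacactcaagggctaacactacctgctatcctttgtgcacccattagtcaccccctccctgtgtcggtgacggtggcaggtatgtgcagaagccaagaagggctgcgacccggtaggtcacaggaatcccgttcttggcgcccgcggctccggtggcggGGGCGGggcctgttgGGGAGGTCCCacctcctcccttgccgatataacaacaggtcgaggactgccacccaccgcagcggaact
Smtnl2: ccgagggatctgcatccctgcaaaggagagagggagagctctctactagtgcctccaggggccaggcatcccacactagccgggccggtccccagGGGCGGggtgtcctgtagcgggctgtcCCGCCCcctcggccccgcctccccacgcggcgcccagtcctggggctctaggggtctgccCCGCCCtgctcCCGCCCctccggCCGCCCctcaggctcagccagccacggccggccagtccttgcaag
Epcam: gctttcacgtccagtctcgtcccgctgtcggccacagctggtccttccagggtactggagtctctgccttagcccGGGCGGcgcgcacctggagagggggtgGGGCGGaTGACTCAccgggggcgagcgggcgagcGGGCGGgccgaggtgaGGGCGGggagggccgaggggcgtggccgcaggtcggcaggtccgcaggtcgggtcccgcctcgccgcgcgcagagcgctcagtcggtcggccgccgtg
The motifs searched were AP-1 (TGACTCA or TGAGTCA), the CArG box of serum response factor, the kappa B site of NF-kB, TEAD (GGAATG), SP1 (GGGCGG), CRE (TGACGTCA) and the TATA box (TATAAA). The E-box (CANNTG) was also searched but is not capitalised, since 65.5% of all 33469 windows of that length hold one. Krt8 has overlapping TATA matches on both strands, 106 to 99 bases before the start, and 12.9% of windows hold one. Krt18 has a kappa B match 69 to 60 bases before the start and an SP1 match 84 to 79 bases before it. These motifs are held by 6.33% and 30.5% of windows. Among the 8 genes, Tagln2 also has a kappa B match, and 6 have an SP1 match. The lack of a kappa B match elsewhere, as in Icam1, says only that the letters searched are not in those windows. Smtnl2 has 5 SP1 matches. Epcam has 4 SP1 matches and an AP-1 match 141 to 135 bases before its start, and 4.05% of windows hold AP-1. None of the 8 windows has a CArG box or a CRE match, held by 1.5% and 1.59% of windows, which says only that these letters are not in these windows. TEAD matches, in 12.1% of windows, lie in those of Tagln2, Bcar3 and Icam1. The windows of Tagln2, Tgfb1i1 and Icam1, not printed, are in part inside the gene's own model, by 58, 114 and 157 bases. The keratin windows share no capitalised motif. Krt8 and Krt18 are the nearest protein-coding neighbours of each other on GRCr8 and are transcribed away from each other.

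Krt8 and Krt18 were highest in vector 6 h and vector 3 d, lowest in vector 24 h and vector 10 d, and between these in all 4 α1ACT groups. Krt8 stood at 1059, 1273 and 1117 CPM in the 3 libraries of vector 6 h and at 925, 1244 and 936 CPM in vector 3 d. In vector 24 h it stood at 267, 268 and 257 CPM, and in vector 10 d at 302, 259 and 275 CPM. Every library of the first 2 groups was thus above every library of the last 2. The α1ACT libraries held 623, 747 and 651 CPM at 6 h and 656, 829 and 653 CPM at 3 d. They held 454, 460.4 and 449 CPM at 24 h and 475, 505 and 533 CPM at 10 d. The 6 h and 3 d values overlapped, and both lay above those of 24 h and 10 d. The order of group means was vector 6 h, vector 3 d, α1ACT 3 d, α1ACT 6 h, α1ACT 10 d, α1ACT 24 h, vector 10 d and vector 24 h, from 1149.6 ± 111 to 264 ± 6.09 CPM (SD, n = 3). Neighbours in that order overlapped in 3 of 7 steps, each between groups that share a time in their names. The fourth such pair, α1ACT 10 d and 24 h, did not overlap.

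Krt18, the partner of Krt8 in the filament, followed the same order of pairs at a wider spread. It stood at 114, 152 and 113 CPM in vector 6 h and at 76.2, 129 and 77.6 CPM in vector 3 d. In vector 24 h it stood at 25.8, 29.2 and 27.8 CPM and in vector 10 d at 25.6, 25.6 and 27.6 CPM. The α1ACT libraries ranged from 52.6 to 91.8 CPM over 6 h and 3 d and from 57.9 to 63.9 CPM over 24 h and 10 d, so those ranges overlapped. The library with the number 2 was the highest of its group in 6 of 8 groups for each keratin, including all 4 groups of 6 h and 3 d. Over the 24 libraries the log2 levels of Krt8 and Krt18 had a Pearson correlation of 0.96, a description of libraries that share groups.

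The line difference of both keratins had opposite signs at different labelled times. At 6 h, Krt8 was lower in α1ACT, at 674 ± 65.2 against 1149.6 ± 111 CPM, a log2 difference of -0.77 ± 0.10 (SE of the edgeR fit). At 24 h it was higher, at 455 ± 5.78 against 264 ± 6.09 CPM, a difference of 0.78 ± 0.10. At 3 d and 10 d the differences were -0.54 ± 0.10 and 0.86 ± 0.10. Krt18 gave -0.70 ± 0.17, 1.15 ± 0.19, -0.49 ± 0.17 and 1.24 ± 0.19 at 6 h, 24 h, 3 d and 10 d. Krt8 libraries of the 2 lines did not overlap at any time, and those of Krt18 overlapped at 3 d only. By the file names, Krt8 and Krt18 were highest at 6H, lower at 24H, lowest at 3D and higher again at 10D, under both P and Q11. Within the vector line as labelled, 24 h against 6 h gave -2.12 ± 0.10 for Krt8 and -2.20 ± 0.18 for Krt18, and 10 d against 3 d gave -1.89 ± 0.10 and -1.84 ± 0.18.

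Other keratins were sparse in these cells. Krt5, Krt20 and Krt80 had 0 counts in all 24 libraries, Krt14 had 1 and Krt19, a further simple-epithelial keratin, had 12. The epidermal keratins Krt1 and Krt10 were counted at 0.798 to 4.3 CPM and 0.686 to 3.17 CPM. Krt1 was called higher in α1ACT at 6 h (3.34 ± 0.836 against 1.21 ± 0.522 CPM, edgeR adjusted p = 0.000452), where Krt8 and Krt18 were lower. Krt10 was called higher in α1ACT at 24 h (2.53 ± 0.579 against 1.26 ± 0.782 CPM, edgeR adjusted p = 0.00548). Differences of that size were not seen at 3 d for Krt1 (1.83 ± 0.319 against 1.38 ± 0.511 CPM) or at 10 d for Krt10 (1.64 ± 0.362 against 1.72 ± 0.115 CPM).

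**Figure D1:**
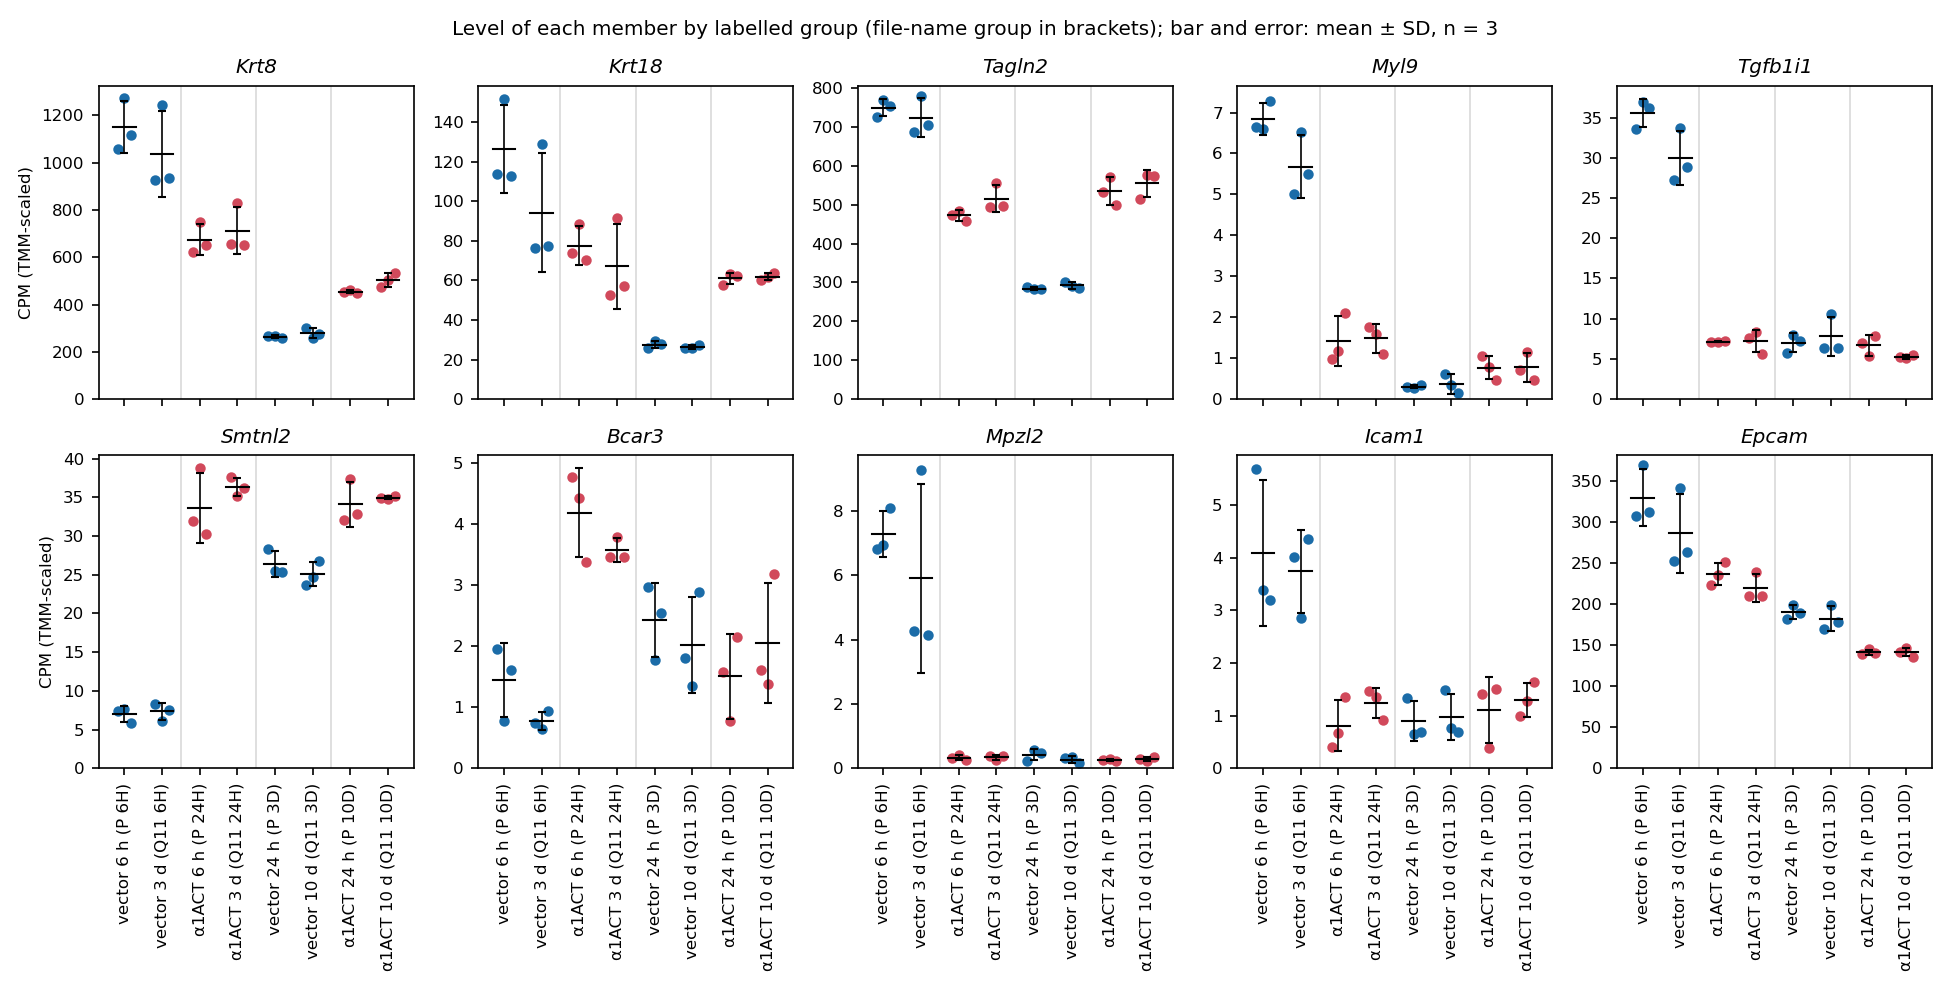
Level of each of the 10 genes in CPM (vertical axis from 0) in the 8 labelled groups, with the file-name group in brackets and groups that share a file-name time side by side. Points are libraries, bars mean ± SD (n = 3), blue vector and red α1ACT. Krt8 stands at 925 to 1273 CPM in vector 6 h and 3 d and at 257 to 302 CPM in vector 24 h and 10 d.

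Tagln2, an actin-bundling protein of the transgelin family, was likewise highest in vector 6 h and 3 d and lowest in vector 24 h and 10 d, over a narrower range. Within α1ACT its means ran the other way from those of Krt8, at 494 CPM over 6 h and 3 d and 545 CPM over 24 h and 10 d. Those of Krt8 were 693 and 479 CPM. The Tagln2 libraries of these 2 pairs overlapped, at 459 to 556 and 499 to 577 CPM. It stood at 725, 770 and 755 CPM in vector 6 h and at 687, 780.3 and 704 CPM in vector 3 d. It stood at 289, 282 and 282 CPM in vector 24 h and at 302, 291 and 285 CPM in vector 10 d. The 12 α1ACT libraries ran from 459 to 577 CPM, between the vector groups and without overlap with them. The line difference was -0.67 ± 0.06 at 6 h, 0.91 ± 0.06 at 24 h, -0.49 ± 0.06 at 3 d and 0.92 ± 0.06 at 10 d. Within the vector line as labelled, 24 h against 6 h gave -1.40 ± 0.06, and within α1ACT it gave 0.18 ± 0.06. In α1ACT, 10 d against 3 d gave 0.11 ± 0.06, with overlap. Of its relatives, Tagln, a smooth muscle marker, had 60 counts over all libraries, and the neuronal Tagln3 stood at 67.2 to 137 CPM.

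Myl9, a regulatory light chain of smooth muscle and non-muscle myosin II, was counted mainly in vector 6 h and 3 d. Its level was 6.65, 6.59 and 7.29 CPM in vector 6 h and 5.01, 6.52 and 5.49 CPM in vector 3 d. The α1ACT libraries held 0.985 to 2.11 CPM over 6 h and 3 d and 0.469 to 1.16 CPM over 24 h and 10 d. Vector 24 h held 0.296, 0.28 and 0.343 CPM and vector 10 d 0.625, 0.336 and 0.151 CPM, from 12 and 14 counts in the 3 libraries of each group. The high groups did not overlap any other, and the low ones are at the edge of detection. At 6 h, 51 counts in α1ACT against 224 in vector gave a ratio 4.82 times lower after scaling for depth (exact 95% counting interval 3.54 to 6.67), and at 3 d it was 3.75 times lower (2.76 to 5.18). At 24 h, 26 against 12 counts gave a ratio 2.45 times higher (1.19 to 5.33), and at 10 d, 22 against 14 counts 2.13 times higher (1.04 to 4.51). These intervals cover counting error only. Without the vector 10 d library with the number 1, the 10 d log2 difference was 1.67 in place of 1.07 ± 0.51. Without the α1ACT 6 h library with the number 3, the 6 h difference was -2.65 in place of -2.26 ± 0.25. The sister light chains Myl12a and Myl12b were counted at 135 to 291 and 121 to 158 CPM. Myl6, another myosin light chain, had 0 counts, which does not tell an absent RNA from reads lost in the counting. Myl12a and Myl12b are near-identical copies, as are Actg1 and Actb, and processed copies of the keratin genes are common in mammalian genomes, so reads of these genes could be split by the counting.

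Smtnl2, a smoothelin-like protein with a calponin homology domain, was low in vector 6 h and 3 d, where Myl9 was high. It stood at 7.36, 7.71 and 5.79 CPM in vector 6 h and at 8.29, 6.15 and 7.57 CPM in vector 3 d. All other libraries lay from 23.7 to 38.8 CPM. Within these, vector 24 h and 10 d held 23.7 to 28.3 CPM and the 4 α1ACT groups 30.3 to 38.8 CPM, without overlap. The line difference was 2.27 ± 0.11 at 6 h and 2.30 ± 0.11 at 3 d, against 0.37 ± 0.09 at 24 h and 0.48 ± 0.10 at 10 d. Its log2 level had a Pearson correlation of -0.97 with that of Tgfb1i1 and of Mpzl2 over the 24 libraries, and a Spearman correlation of -0.69 and -0.53. Smtn, which gives the family its name, stood at 7.82 to 24.1 CPM, and Smtnl1 had 7 counts in all.

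Tgfb1i1 encodes Hic-5, a paxillin-family adaptor of focal adhesions that is induced by TGF-beta. It was high in vector 6 h and 3 d and several times lower elsewhere. It stood at 33.6, 36.9 and 36.2 CPM in vector 6 h and at 27.2, 33.7 and 28.9 CPM in vector 3 d. The other 18 libraries ranged from 5.08 to 10.6 CPM. Neighbours in the order of the 6 groups outside the high pair overlapped, down to α1ACT 10 d at 5.27 ± 0.221 CPM. Groups further apart did not all overlap. The α1ACT 10 d libraries, at 5.08 to 5.51 CPM, lay below those of vector 10 d (6.36 to 10.6 CPM) and α1ACT 3 d (5.65 to 8.33 CPM). The line difference was -2.31 ± 0.15 at 6 h and -2.05 ± 0.15 at 3 d, -0.04 ± 0.18 at 24 h and -0.55 ± 0.20 at 10 d. Its paralogs Pxn (paxillin) and Lpxn were counted at 17.4 to 36.4 and 15.2 to 42.4 CPM.

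Bcar3, an exchange-factor-like adaptor that binds the focal adhesion scaffold p130Cas, had its own order. It was highest in α1ACT 6 h, at 4.76, 4.42 and 3.37 CPM, and α1ACT 3 d, at 3.46, 3.79 and 3.46 CPM. It was lowest in vector 3 d, at 0.739, 0.643 and 0.933 CPM, and stood at 1.95, 0.78 and 1.6 CPM in vector 6 h. The 12 libraries of 24 h and 10 d spread from 0.773 to 3.17 CPM and overlapped between lines. The line difference was 1.54 ± 0.32 at 6 h, 2.21 ± 0.38 at 3 d, -0.67 ± 0.34 at 24 h and -0.01 ± 0.35 at 10 d. With 25 to 151 counts in the 3 libraries of a group, the counting interval of the 6 h ratio was 2.1 to 4.15. Bcar1, which encodes p130Cas itself, was counted at 37.6 to 81 CPM, and the related adaptor Sh2d3c at 1.58 to 6.85 CPM.

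**Figure D2:**
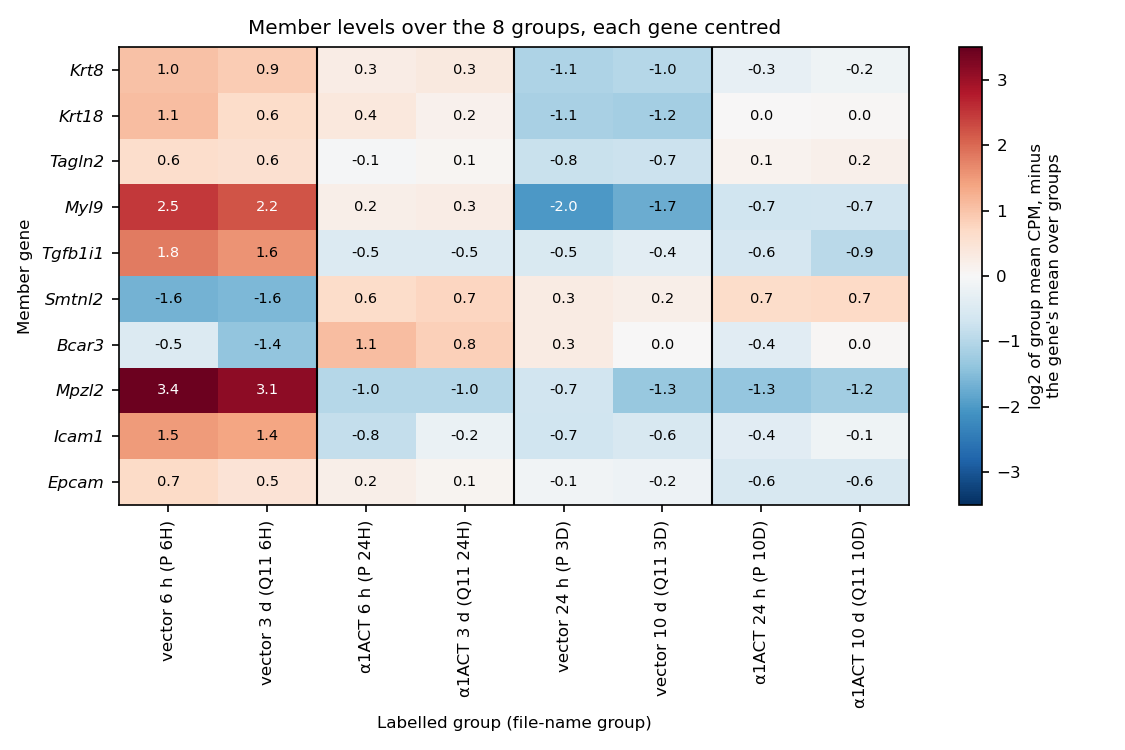
Log2 of each group's mean CPM minus the gene's mean over the 8 groups, 1 row per gene and 1 column per labelled group with its file-name group in brackets, and lines between the pairs that share a file-name time. Adjacent columns of a pair have like colours, and Smtnl2 and Bcar3 run against the other 8 genes in the first pair.

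Mpzl2, an immunoglobulin-family adhesion protein of epithelia and thymus, was close to an on and off pattern. It stood at 6.83, 6.93 and 8.09 CPM in vector 6 h and at 4.27, 9.28 and 4.15 CPM in vector 3 d. All other libraries lay from 0.151 to 0.56 CPM, with 8 to 16 counts in the 3 libraries of a group, so differences among them were not detectable at this depth. At 6 h, 12 counts in α1ACT against 238 in vector gave a ratio 21.8 times lower (exact 95% counting interval 12.2 to 42.7). At 3 d, 12 against 193 counts gave a ratio 17.6 times lower (9.86 to 34.7). The number 2 library of vector 3 d carried much of the latter, and without it the 3 d log2 difference was -3.61 in place of -4.10 ± 0.36. Without all libraries of the number 2 it was -3.45. Of its family, Mpzl1 stood at 43.6 to 69.1 CPM and Mpzl3 at 10.4 to 42.3 CPM. Mpzl3 was called lower in α1ACT at all 4 labelled times, by log2 differences of -0.94 ± 0.12, -1.32 ± 0.11, -1.12 ± 0.13 and -1.0 ± 0.12 at 6 h, 24 h, 3 d and 10 d (edgeR adjusted p = 1.07e-06, 4.13e-10, 1.81e-07 and 1.02e-07).

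Icam1, the leukocyte-binding adhesion molecule induced by NF-kB, was also highest in vector 6 h and 3 d but was sparsely counted. It stood at 5.68, 3.38 and 3.2 CPM in vector 6 h and at 4.02, 2.85 and 4.35 CPM in vector 3 d. The other 18 libraries ranged from 0.386 to 1.64 CPM, all below the high pair and overlapping among themselves. The line difference was -2.33 ± 0.38 at 6 h and -1.57 ± 0.35 at 3 d, 0.33 ± 0.47 at 24 h and 0.40 ± 0.47 at 10 d. Without the libraries of the number 1 the 6 h difference was -1.71, and without those of the number 3 it was -3.05, over a 1.5-fold change each way. Without the number 1 library of vector 10 d the 10 d difference was 0.83. Icam2, Icam4 and Icam5 had 32, 12 and 35 counts over all 24 libraries.

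Epcam, a homophilic adhesion molecule of epithelia, stepped down through the 4 pairs of groups. It stood at 307, 370.1 and 313 CPM in vector 6 h and at 253, 342 and 264 CPM in vector 3 d. The α1ACT groups of 6 h and 3 d held 224, 236 and 251 CPM and 210.3, 239 and 209.8 CPM. These 2 pairs did not overlap, and 2 further steps down followed. Vector 24 h held 182, 199 and 189 CPM and vector 10 d 170, 199 and 178 CPM. The α1ACT groups held 139.8, 145 and 140 CPM at 24 h and 142, 146 and 136 CPM at 10 d. No pair overlapped the next, whereas the 2 groups of a pair always did. The line difference was lower in α1ACT at every time, by -0.48 ± 0.09, -0.43 ± 0.09, -0.38 ± 0.09 and -0.37 ± 0.09 at 6 h, 24 h, 3 d and 10 d. By the file names this order is 6H, 24H, 3D and 10D under both P and Q11, lower at each later time. The number 2 library was the highest of its group in 7 of 8 groups.

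**Figure D3:**
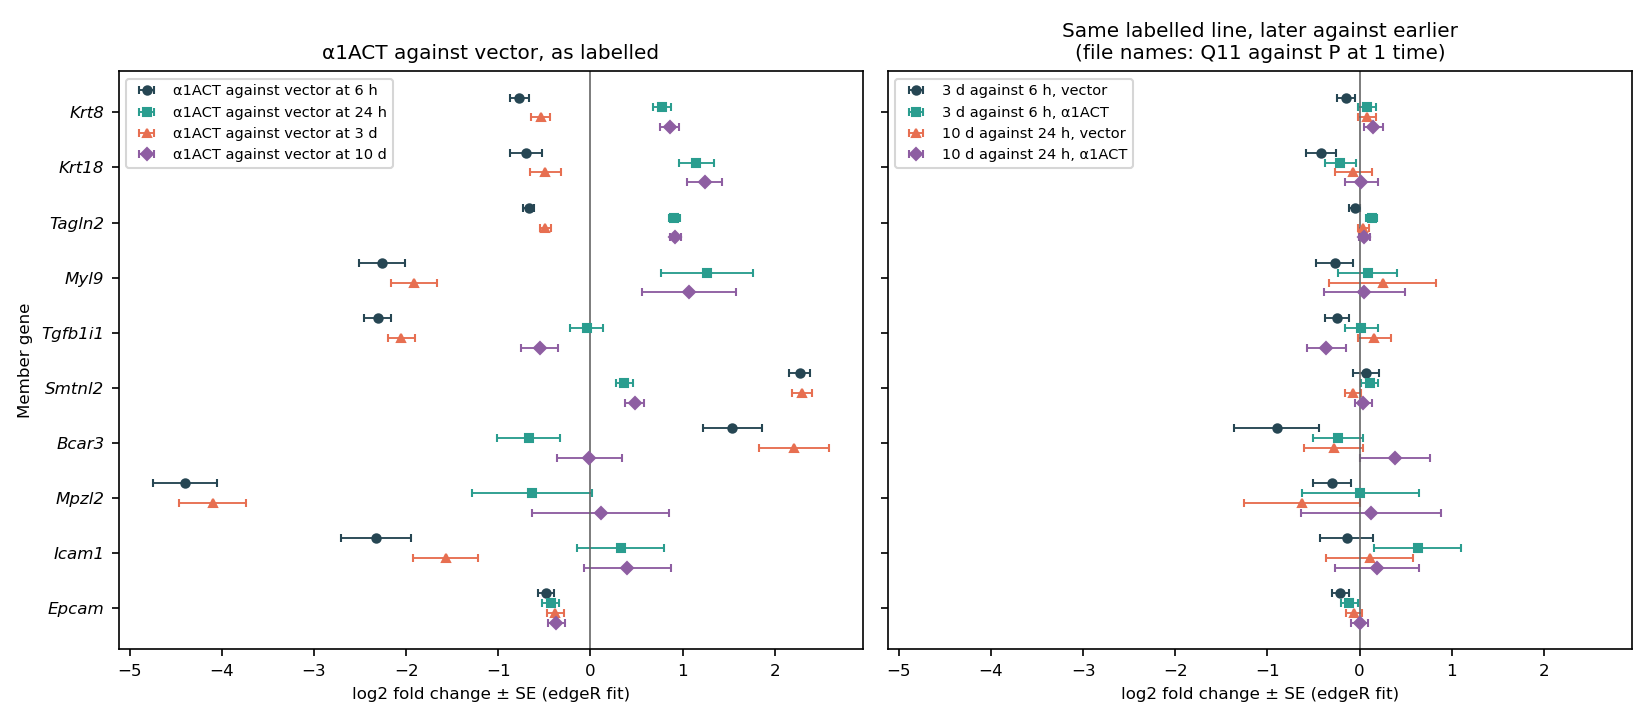
Log2 fold change ± SE from the edgeR fit (horizontal axis) for each gene. On the left, α1ACT against vector at the 4 labelled times, with values from -4.40 (Mpzl2, 6 h) to 2.30 (Smtnl2, 3 d). On the right, the later against the earlier group within a labelled line, which by file names is Q11 against P at 1 time, with values from -0.90 (Bcar3) to 0.63 (Icam1).

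Counted by the call rule used for all genes, an edgeR adjusted p under 0.05, 2 of the 10 were higher and 8 lower in α1ACT at 6 h. Of all 9994 tested genes, 20.5% were called higher and 21.2% lower. At 24 h, 5 were higher and 1 lower (26.6% and 28.8% of all tested). At 3 d, 2 were higher and 8 lower (19.9% and 19.4%), and at 10 d, 4 were higher and 2 lower (29.5% and 29.4%). The genes were chosen on these contrasts, so these counts describe the choice and nothing is read from them. Between the groups that share a file-name time, 0 of the 10 were called in any of 4 comparisons. The background there was 1.14% higher and 0.330% lower for vector 3 d against 6 h, and 0.800% and 0.260% for α1ACT 3 d against 6 h. It was 4.29% and 3.15% for vector 10 d against 24 h, and 2.21% and 2.41% for α1ACT 10 d against 24 h. With a background this low, 0 of 10 is near the share of all genes. The largest of those differences by size were those of Bcar3, -0.90 ± 0.46 for vector 3 d against 6 h, and Icam1, 0.63 ± 0.47 for α1ACT 3 d against 6 h.

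The genes around the 10 were taken from 5 lists of 240 genes in the tables, of which 171 passed the filter, with the 10 left out. The lists hold keratin and epithelial genes, contractile and actin genes, focal adhesion genes, surface adhesion genes, and genes of NF-kB, TGF-beta and YAP-TEAD signalling. They were chosen with earlier results of these data known. Here and below, their shares and medians beside those of all tested genes are therefore a description, and no excess is inferred from them. In α1ACT against vector at 6 h, 30 of the 171 were called higher and 63 lower, 17.5% and 36.8% beside 20.5% and 21.2% of all tested genes. The contractile and actin list was the most one-sided, with 7 higher and 23 lower of 43 and a median log2 difference of -0.17 beside 0 for all tested genes. Actg1, cytoplasmic gamma-actin, was lower, at 193 ± 1.53 against 634 ± 61.5 CPM (-1.71 ± 0.09, edgeR adjusted p = 7.49e-13). Flnc, an actin crosslinker of the filamin family, was 5.86 ± 1.17 against 19.1 ± 1.75 CPM, a difference of -1.70 ± 0.19. Cnn3, a calponin, and Myh14, a heavy chain of non-muscle myosin II, were called higher, by 0.68 ± 0.07 and 0.63 ± 0.09. Of 49 focal adhesion genes, 8 were higher and 16 lower. Vcl, which encodes vinculin, was lower, at 173 ± 5.95 against 552 ± 50.2 CPM (-1.68 ± 0.09, edgeR adjusted p = 1.27e-12), and the actin-binding LIM protein gene Pdlim7 gave -1.37 ± 0.08. The integrin gene Itgb5 and Parvb, a parvin, were called higher, by 0.57 ± 0.10 and 0.43 ± 0.07.

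Of 27 keratin and epithelial genes, 6 were higher and 8 lower, among the latter the desmosomal plakophilin Pkp2 (-0.95 ± 0.13) and the tight junction gene Marveld2 (-0.76 ± 0.07). Of 26 surface adhesion genes, 5 were higher and 7 lower, with Bcam at 0.60 ± 0.12 and the nectin Pvrl3 at -0.67 ± 0.12. Of 27 signalling genes, 4 were higher and 9 lower. Tead2, a partner of the coactivator YAP, was 5.97 ± 0.963 against 1.62 ± 0.792 CPM (1.90 ± 0.30). With library sizes alone in place of TMM, the share of higher calls over all genes at 6 h moved from 49.1% to 60.3%, and over the listed calls from 32.3% to 38.5%.

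At the labelled 3 d, 30 listed genes were called higher and 56 lower, 17.5% and 32.7% beside 19.9% and 19.4% of all tested genes. The contractile and actin list had 5 higher and 21 lower of 43. Srf, the transcription factor of cytoskeletal genes, stood at 55.9 ± 2.75 against 171 ± 25.2 CPM (-1.61 ± 0.09, edgeR adjusted p = 1.29e-12). Actg1 gave -1.53 ± 0.09, Vcl -1.45 ± 0.09 and Pdlim7 -1.06 ± 0.08. Pkp2 was again lower (-0.98 ± 0.14), as was Ppl, a periplakin gene (-0.60 ± 0.10). Keratin and epithelial genes were called 7 higher and 7 lower, focal adhesion genes 9 and 14, surface adhesion genes 5 and 5, and signalling genes 5 and 9. Tead2 (1.24 ± 0.32) and Smad6, an inhibitor of bone morphogenetic protein signalling (0.70 ± 0.12), were called higher. With library sizes alone in place of TMM, the share of higher calls at 3 d moved from 50.6% to 59.7% over all genes, and the listed calls were 33 higher and 50 lower. By the file names, 6 h is P 24H against P 6H and 3 d is Q11 24H against Q11 6H.

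At 24 h the contractile and actin list was called mainly higher in α1ACT. Of the 171 listed genes, 44 were higher and 43 lower, 25.7% and 25.1% beside 26.6% and 28.8% of all tested genes. In the contractile and actin list it was 19 higher and 7 lower of 43, with a median of 0.16 beside -0.02. Tmsb4x, the actin-monomer-binding thymosin beta 4, stood at 149 ± 25.4 against 52.2 ± 9.8 CPM (1.51 ± 0.14, edgeR adjusted p = 7.35e-10). The tropomyosin gene Tpm4 stood at 307 ± 32 against 165 ± 8.51 CPM (0.89 ± 0.08). The small GTPase gene Rhob was lower, at 122 ± 6.91 against 264 ± 10.2 CPM (-1.12 ± 0.08), and so was Myh14 (-0.92 ± 0.09). Focal adhesion genes were called 13 higher and 12 lower of 49. Pdlim1, a PDZ and LIM protein gene, was 113 ± 14.4 against 49.3 ± 0.686 CPM (1.19 ± 0.10), while Tln1, which encodes talin, was 121 ± 6.05 against 239 ± 9.24 CPM (-0.98 ± 0.05). Plec, the plectin that links keratin filaments to actin and junctions, stood at 133 ± 16.6 against 501 ± 22.3 CPM (-1.91 ± 0.10, edgeR adjusted p = 1.1e-13). Krt8 and Krt18 were higher in α1ACT at that time. Signalling genes were called 2 higher and 11 lower of 27, among the latter the NF-kB target Birc3 (-1.04 ± 0.18) and the TGF-beta inhibitor Smad7 (-0.97 ± 0.10). Keratin and epithelial genes were called 4 and 7, and surface adhesion genes 6 and 6.

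At 10 d, 41 listed genes were higher and 49 lower, 24% and 28.7% beside 29.5% and 29.4% of all tested genes. Surface adhesion genes were called 12 higher and 7 lower of 26, with a median of 0.13 beside 0.01. Cd24, a glycosylphosphatidylinositol-anchored surface protein, was 6547 ± 279.9 against 4256 ± 137 CPM (0.62 ± 0.06), and the tetraspanin Cd151 gave 0.78 ± 0.19. Ncam1, the neural cell adhesion molecule, was 143 ± 6.94 against 257 ± 10.8 CPM (-0.84 ± 0.07). Contractile and actin genes were called 12 higher and 8 lower, 27.9% and 18.6% beside 29.5% and 29.4% of all tested genes. The larger share called higher in this list at 24 h (44.2%) was thus not seen at 10 d. Tmsb4x gave 1.19 ± 0.13, Rhoc 0.82 ± 0.08, Rhob -1.26 ± 0.08 and Myh14 -0.83 ± 0.09. Plec stood at 148 ± 19.4 against 584 ± 96.5 CPM (-1.98 ± 0.10, edgeR adjusted p = 4.87e-14). Focal adhesion genes were called 14 and 15, with Pdlim1 at 1.20 ± 0.11 and Tln1 at -1.01 ± 0.05. Keratin and epithelial genes were called 2 and 9, and signalling genes 1 and 10, with Tead2 at 1.15 ± 0.41 and Birc3 at -1.14 ± 0.18. By the file names, 24 h is P 10D against P 3D and 10 d is Q11 10D against Q11 3D.

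**Figure D4:**
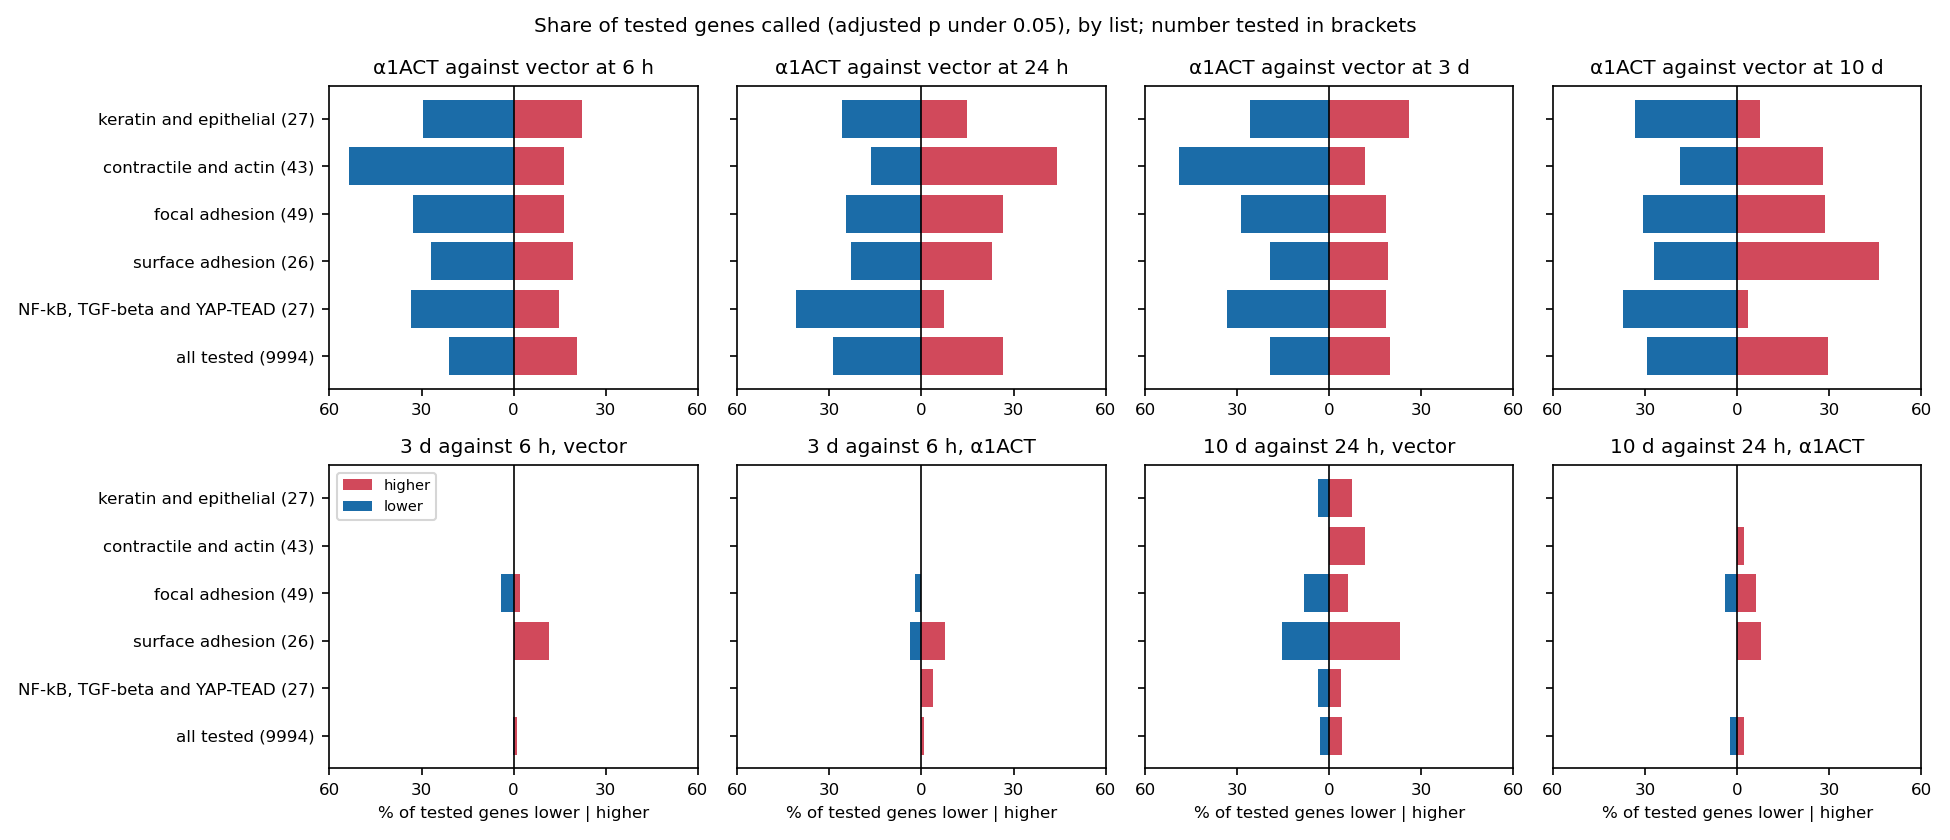
Share of tested genes called lower (blue, to the left of 0) and higher (red, to the right) at an edgeR adjusted p under 0.05, in percent, for the 5 lists and all 9994 tested genes. Upper panels show α1ACT against vector at the 4 labelled times and lower panels the later against the earlier group within a labelled line. The contractile and actin list has 53.5% lower at 6 h and 48.8% at 3 d. It has 44.2% higher at 24 h and 27.9% at 10 d, beside 26.6% and 29.5% of all tested genes. The lists were chosen with earlier results of these data known, so the shares are a description.

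Some listed genes had the change of sign seen for Krt8, Krt18, Tagln2 and Myl9. Since the lists were chosen with earlier results known, these shares too are a description. At 6 h and 24 h, 28 of the 171 (16.4%) were called in opposite directions, beside 12.4% of all tested genes. Of these, 21 (12.3%) were lower at 6 h and higher at 24 h, beside 6.46% of all tested genes. At 3 d and 10 d it was 23 (13.5%, beside 11.1%), of which 14 (8.19%, beside 5.68%) were lower and then higher. Vcl was one, with 0.42 ± 0.10 at 24 h (edgeR adjusted p = 0.000942) and 0.31 ± 0.10 at 10 d (edgeR adjusted p = 0.0116) after its lower values at 6 h and 3 d. Its libraries held 509.6, 608 and 539.7 CPM in vector 6 h and 389.8, 549.9 and 417 CPM in vector 3 d. They held 160 to 179.7 CPM in α1ACT 6 h and 3 d, 90.5 to 112 CPM in α1ACT 24 h and 10 d, and 72.9 to 87 CPM in vector 24 h and 10 d. The order of the 4 pairs was that of Krt8. Actg1 and Srf instead had the Tgfb1i1 shape. Srf stood at 166, 181 and 186 CPM in vector 6 h and at 163, 199 and 151 CPM in vector 3 d, and the other 18 libraries lay from 52.3 to 79.5 CPM. Plec was low in 1 pair alone, at 122 to 162 CPM in α1ACT 24 h and 10 d and at 475 to 865 CPM elsewhere.

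Between groups that share a file-name time, 5 to 27 of the 171 listed genes were called. For vector 3 d against 6 h, 4 were higher and 2 lower (2.34% and 1.17%, beside 1.14% and 0.330% of all tested genes). For α1ACT 3 d against 6 h it was 3 and 2 (1.75% and 1.17%, beside 0.800% and 0.260%). For vector 10 d against 24 h it was 17 and 10 (9.94% and 5.85%, beside 4.29% and 3.15%). For α1ACT 10 d against 24 h it was 6 and 2 (3.51% and 1.17%, beside 2.21% and 2.41%). In all 4, Cdh2 (N-cadherin) and L1cam (an adhesion molecule of growing axons) were called higher, 2 of the 171 listed and 26 of the 9994 tested genes. At least 1 of the 4 comparisons called 33 of the 171 and 1202 of the 9994. Cdh2 stood at 39.6, 30.2 and 40.3 CPM in vector 6 h and at 57.4, 53.7 and 56.4 CPM in vector 3 d (0.61 ± 0.13, edgeR adjusted p = 0.0111). In α1ACT it stood at 28.5, 23.7 and 33.9 CPM at 6 h and at 48.4, 39.7 and 56.2 CPM at 3 d (0.74 ± 0.13, edgeR adjusted p = 0.00228). The 10 d against 24 h differences were 0.74 ± 0.12 in vector and 0.61 ± 0.14 in α1ACT. L1cam gave 0.37 ± 0.07, 0.40 ± 0.07, 0.30 ± 0.07 and 0.38 ± 0.07 in the same 4 comparisons. Libraries of the compared groups did not overlap for Cdh2 or for L1cam in any of the 4. Of 15 alternative settings per comparison, all kept both genes higher, but the calls were kept in 9 to 15 for Cdh2 and 10 to 12 for L1cam. For both genes the highest adjusted p in each comparison came without the libraries numbered 1. In that setting only Cdh2 in vector 10 d against 24 h was still called (edgeR adjusted p = 0.0481). All other calls of the 2 genes were lost there (edgeR adjusted p = 0.163 to 0.644). Pdlim5 was called lower in 3 comparisons, by -0.40 ± 0.10, -0.42 ± 0.10 and -0.41 ± 0.11. Cd24 was called lower in 2, by -0.26 ± 0.06 in α1ACT 3 d against 6 h and -0.37 ± 0.06 in vector 10 d against 24 h.

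These 4 counts rest on few libraries. For vector 3 d against 6 h, the 6 calls became 0, 15 and 1 without the vector 3 d library numbered 1, 2 or 3, and 1 without number 2 of vector 6 h. For α1ACT 3 d against 6 h, the 5 calls became 1 or 2 without number 1 or 3 of α1ACT 3 d, and 2 or 3 without number 1 or 2 of α1ACT 6 h. For vector 10 d against 24 h, the 27 calls became 12 without number 2 of vector 10 d, and 11 or 9 without number 1 or 3 of vector 24 h. For α1ACT 10 d against 24 h, the 8 calls became 0 or 1 without number 1 or 3 of α1ACT 10 d, and 2, 1 or 14 without number 1, 2 or 3 of α1ACT 24 h.

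**Figure D5:**
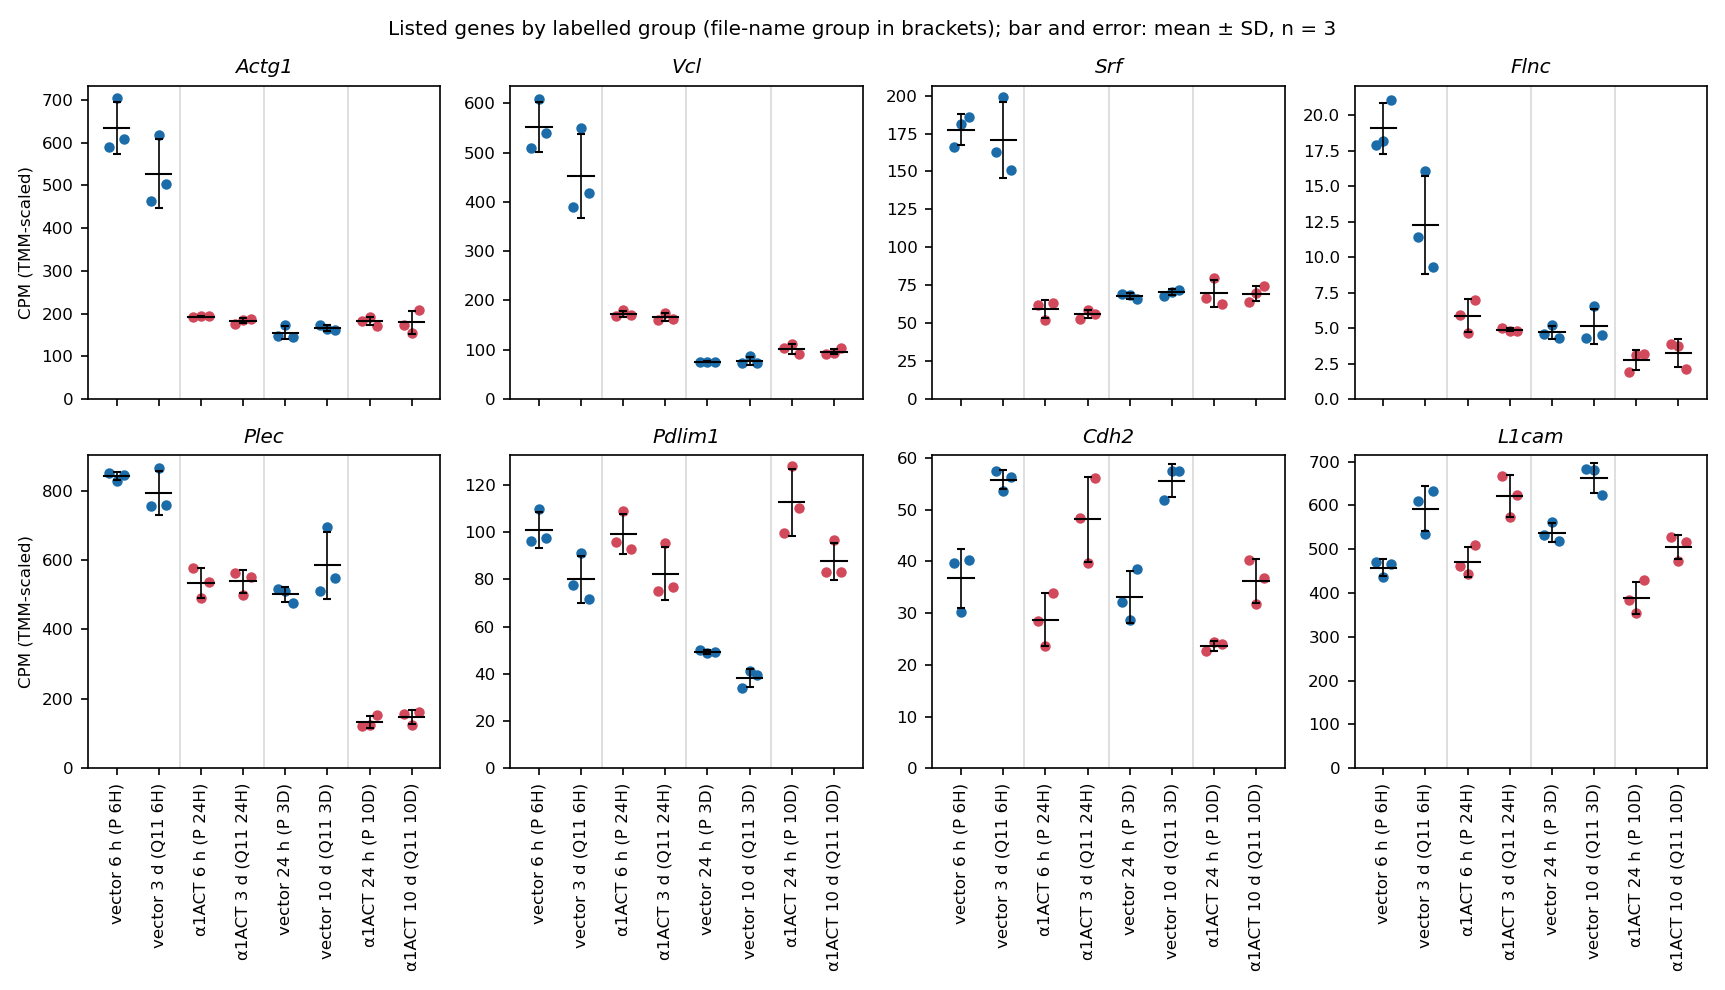
Level in CPM (vertical axis from 0) of 8 genes of the lists in the 8 labelled groups, drawn as for the 10 genes, with points for libraries and bars for mean ± SD (n = 3). Actg1, Vcl, Srf and Flnc stand high in vector 6 h and 3 d, Plec is low in α1ACT 24 h and 10 d (122 to 162 CPM), and Cdh2 and L1cam are higher in the Q11 group of each pair.

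Genes whose log2 levels over the 24 libraries were most like those of each of the 10 are named as a description, since all share libraries and groups. For Krt8 they were Mmd (Pearson r = 0.99), Eif4a3 and Anxa11 (0.98 each), and for Krt18 Asun, Mtch2 and Uba2 (0.95 each). Tagln2 was like Cyp51, an enzyme of cholesterol synthesis, and Arpc2, a subunit of the actin-nucleating Arp2/3 complex (0.98 each). Myl9 was most like Tnfrsf12a, Gipc1 and Ehd4 (0.97 each). Tgfb1i1 was most like the formin gene Daam1 (0.98), Gpr37 and Tmem43 (0.97 each), and Mpzl2 most like Sgms2, Actg1 (0.98 each) and Map4k5 (0.97). Smtnl2 had Cyth3 (0.98), Rap1gap2 (0.97) and Foxk2 (0.95), and Epcam had Ctnnd1, the catenin p120 gene, Serinc5 (0.98 each) and Npepo (0.97). The sparse genes Bcar3 and Icam1 reached at most 0.86, with Emilin1 and with Prnp. Among the 10 themselves, Tgfb1i1 and Mpzl2 had a Pearson correlation of 0.97 but a Spearman correlation of 0.69.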

How the data were processed

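Total RNA of 24 PC12 libraries was sequenced after depletion of ribosomal RNA with a stranded kit, per the labels' protocols. For each library the authors deposited raw counts of reads by gene symbol, without normalization. The 5 summary lines of each table entered neither library sizes nor tests. The submitters' processing notes name build rn5 and HTSeq 0.5.4p5, TopHat2 2.0.10, FastQC 0.11.2, Picard 1.117 and edgeR. What each tool did, the annotation and any use of strand are not given in the sources used, so reads of antisense genes or near-identical copies may be split or lost.

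Groups came from the labels, and nothing in them says that the 3 libraries of a group were separate cultures. P-values therefore describe only how these samples spread. No 2 replicates agreed within sampling noise (chi-square per degree of freedom 1.98 to 11.3). The fit was edgeR 4.0.16 in R 4.3.3 with limma 3.58.1, with all 24 libraries, a coefficient for each group and 16 residual degrees of freedom, and TMM factors were 0.981 to 1.02. Its filter (minimum count 10, minimum total 15) kept 9994 of 17055 genes. Calls are adjusted p-values under 0.05 in the quasi-likelihood F-test (Benjamini-Hochberg over the genes kept). The code was tested on simulated data. CPM used TMM-scaled library sizes, and correlations log2 CPM with a prior count of 2.

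The members and lists were chosen with earlier results of these data known. Named listed genes were, per comparison and list, up to 2 called genes each way with the largest log2 change and a mean of at least 2 CPM. Which of these genes are given by library was chosen after their values were seen. For each member the 3 most correlated genes are named, and a few genes that these rules select are not reported here.

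Replicate numbers are those of the labels. Deviations of same-numbered libraries from their group means correlated over 0.1 for every number only in α1ACT against vector at 3 d (0.12, 0.32 and 0.14). The number was not in the main fit. Alternatives were RLE size factors, library sizes alone, no filter, DESeq2 1.42.0, only the compared groups, a replicate block and leaving out replicates. Promoters came from RefSeq (GRCr8).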

Additional observations from a re-analysis of the deposited data

Results flagged for a closer look

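Among the 10 genes and the listed genes given by library or named at both times, the difference between α1ACT and vector had opposite signs at different labelled times for 6, with every α1ACT library on one side of every vector library and then on the other. The difference between times was itself not tested. The log2 line difference at 6 h and then at 24 h was -0.77 and 0.78 for Krt8, -0.70 and 1.15 for Krt18, -0.67 and 0.91 for Tagln2, and -2.26 and 1.27 for Myl9. The 24 h value of Myl9 has an SE of 0.5 and rests on 26 against 12 counts, at the edge of detection. Its libraries overlapped between lines at 10 d. Myh14, a listed non-muscle myosin heavy chain, ran the other way, with 0.63 at 6 h and -0.92 at 24 h. Vcl, which encodes vinculin, gave -1.68 and 0.42. At 3 d and 10 d, Krt8 gave -0.54 and 0.86, Tagln2 -0.49 and 0.92, and Vcl -1.45 and 0.31. By the file names these are differences between 24H and 6H and between 10D and 3D within 1 line.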

How the results depend on the processing

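The counts of listed genes called between labelled lines stayed within 1.5 times their value in all settings run. They were 93 at 6 h (89 to 95 in other settings, 67 to 86 without replicates), 87 at 24 h (87 to 95, 71 to 89), 86 at 3 d (83 to 90, 61 to 81) and 90 at 10 d (88 to 96, 76 to 94). The counts within a labelled line moved more. With only the compared groups fitted, α1ACT 10 d against 24 h went from 8 to 3, vector 10 d against 24 h from 27 to 14 and α1ACT 3 d against 6 h from 5 to 8. With no filter on low counts, α1ACT 3 d against 6 h gave 8 and vector 3 d against 6 h 13 in place of 6, and DESeq2 gave 10 for the latter. With the replicate block, the counts were 13 for α1ACT 10 d against 24 h, 12 for α1ACT 3 d against 6 h and 16 for vector 3 d against 6 h, and the block moved no other count by over 1.5 times. By the check used, only α1ACT against vector at 3 d had every same-number correlation over 0.1. The correlations at 6 h were 0.16, 0.34 and 0.1, and those of number 2 were 0.04 to 0.34 over all comparisons. For 18 of 24 libraries, deviations from the group mean correlated most, on average, with libraries of their own number in other groups. The main fit left the number out, so deviations shared by number stay in its spread. Leaving out replicates gave 0 to 14 for α1ACT 10 d against 24 h, 4 to 36 for vector 10 d against 24 h, 0 to 17 for α1ACT 3 d against 6 h and 0 to 22 for vector 3 d against 6 h. Of the members' fold changes under these settings, 1156 moved by less than the spread between replicates, 34 moved further and 0 of the called ones changed sign. With library sizes alone, the share of higher calls over all genes moved from 47.8% to 38.5% for α1ACT 10 d against 24 h. Time in name and label agree in 2 groups only, so no labelled comparison can be made without libraries in doubt. Depth limits Mpzl2, Myl9, Icam1 and Bcar3, which had 2 to 7 counts in their lowest libraries. The cause of these shifts was not tested.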
